A study of Mus musculus with 3 samples.

Results

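The PPAR receptors and their coregulators were followed as a set of 9 genes in RNA pulled down with tagged FTO from mouse white fat. The set holds the receptors Ppara, Ppard and Pparg, their partner Rxra, the coactivators Ppargc1a, Ppargc1b and Ncoa1, the transcriptional coregulator Prdm16 and the corepressor Ncor1. They were taken by gene symbol, and each symbol had 1 row among the 39179 genes of the count table. All 9 passed the filter on low counts that left 17587 genes for testing. FTO is a demethylase that acts on methylated adenosine in RNA, and the Flag tag lets an antibody pull it out of a lysate with the RNA attached to it. The 3 libraries were 2 Flag-IP libraries, made with an anti-Flag M2 monoclonal antibody, and 1 IgG-IP library, made with nonspecific IgG. All came from white fat of C57BL/6 mice, 16 weeks old, that carried the Flag-FTO transgene and had been fasted overnight. No library came from mice without the transgene, and the sources used here do not give the promoter of the transgene or say whether animals were pooled. Nothing in the labels ties a library to an animal of its own, so p-values measure only the spread between these Flag-IP libraries, which may be technical. The comparison asked which transcripts were more abundant with the tagged protein than in the background pull-down.

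PPARs are nuclear receptors that bind fatty acids and their derivatives and sit on DNA as a pair with a retinoid X receptor such as Rxra. Without a ligand the pair can hold a corepressor complex built on Ncor1, and with one it takes up coactivators of the Ncoa and Ppargc1 families. In fat, Pparg drives adipocyte formation and lipid storage, Ppara and Ppard are known for fatty acid oxidation, and Ppargc1a and Prdm16 are known for the thermogenic program of brown and beige adipocytes.

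FTO acts on N6-methyladenosine, which is often laid down in short contexts around a central A, of which GGACT in the DNA alphabet is a common one. To show what such a context looks like in these transcripts, the copy nearest to the stop codon was taken from the longest protein-coding GENCODE M21 transcript (GRCm38) of each gene for which sequence is given. The bases are the sense strand, 5′ to 3′, 25 bases long, with GGACT in capitals.
Ppara: ttgcaaacttGGACTtgaacgacca
Ppard: gcccagccacGGACTgttcagagga
Pparg: agatctacaaGGACTtgtattagca
Rxra: gtggcctgagGGACTtggagctgaa
Ppargc1a: acacatgtgaGGACTtgggggcacc
Ncoa1: tccaggaccaGGACTagttccccaa
Prdm16: tcaagtgcaaGGACTgtgggcagat
Ncor1: tgtcaccaggGGACTgtccccacga

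The motif in the Ppard window starts 46 bases after the stop codon, in the 3′ untranslated region, and those of Ppargc1a and Rxra start 395 and 850 bases after it. In the Pparg window it starts 12 bases before the last base of the stop codon, inside the coding sequence. The windows of Ppara, Ncoa1, Ncor1 and Prdm16 are also coding, with the motif starting 507, 494, 2444 and 2550 bases before that point. A motif match says nothing on methylation or on binding, and the counts give no position within a gene.

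The libraries held 98227791 and 95824218 counts for Flag-IP 1 and Flag-IP 2 and 74176962 for IgG-IP, of which 97.6%, 97.6% and 97.0% fell on 28 genes, so a median tested gene had 24, 26 and 25 counts. A normalized count, used below, is a count scaled by TMM factors to the mean effective library size. Counts followed the full length of the gene, introns included: across 19481 protein-coding genes, as a description, count and gene span had a Spearman's rho of 0.85, 0.87 and 0.90, against 0.59, 0.59 and 0.57 for exonic length. The median protein-coding gene had 0.826, 0.836 and 0.784 normalized counts per kb of span. The white adipocyte markers were all detected in all libraries, with a list median of 3.58 and 3.75 in Flag-IP and 3.66 in IgG-IP on that scale. That median hides unequal genes: the summed level per kb of summed span was 56.1 and 37.4 in Flag-IP and 28.5 in IgG-IP, 7 of 8 tested markers had a log2 fold change above 0 with a median of 1.49, and Plin1 and Aqp7 were called higher. Within that list Lpl had 3108, 1996 and 2666 counts, but Adipoq, a defining adipocyte hormone, had 18 and 14 counts in Flag-IP and 3 in IgG-IP. Medians were lower for the macrophage markers (0.683 and 0.596 in Flag-IP, 0.838 in IgG-IP), the endothelial markers (0.829 and 1.02 in Flag-IP, 0.764 in IgG-IP), the skeletal muscle markers (1.44 and 1.04 in Flag-IP, 0.494 in IgG-IP), the hepatocyte markers (0.330 and 0.820 in Flag-IP, 0.833 in IgG-IP), the brown adipocyte markers (0.802 and 0.737 in Flag-IP, 0.233 in IgG-IP) and the epididymis and testis markers (0 and 0.661 in Flag-IP, 0.198 in IgG-IP). Cox8b, Elovl3, Apoa1, Serpina1a, Acta1, Lcn8 and Prm2 were at 0 counts in IgG-IP, and Lyz2 and Tnp1 were at 0 in both Flag-IP libraries. Summed counts were 40 and 38 in Flag-IP and 23 in IgG-IP for the 5 brown adipocyte markers, and 137 and 85 in Flag-IP and 48 in IgG-IP for the 5 muscle markers. Of the muscle markers, 2 of 4 tested were called higher, where 5.58% of all tested genes were. They were Ckm (23 and 19 counts in Flag-IP, 4 in IgG-IP) and Tnnt3 (39 and 26 in Flag-IP, 9 in IgG-IP). The median log2 fold change of the 4 was 1.71, above the value of any of the 9 genes, with Myh1 at -0.0031. With the trend on transcript GC described below taken out, 0 of these 4 were called. Most tested adipocyte and muscle markers thus moved in the same direction as Ppard, Rxra and Prdm16. Cidec (-0.40) and Myh1 did not, and Lpl hardly moved (0.08). What part such cells have in the results was not tested. In bulk tissue the number of cells of a type and their RNA per cell cannot be told apart. Here neither can be told apart from what each pull-down recovered.

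Ppard and Rxra passed as higher in Flag-IP, and Ppara and Pparg did not pass. The test was the quasi-likelihood test of edgeR, with p-values adjusted by Benjamini-Hochberg over all tested genes and a threshold of 0.05. Ppard, the broadly expressed fatty acid receptor, had 90.5 and 101 normalized counts in Flag-IP and 33.9 in IgG-IP (84, 102 and 36 counts). Both Flag-IP libraries were well above IgG-IP, with 95% exact Poisson intervals of 72.2 to 112 and 82.4 to 123 against 23.8 to 46.9, which cover counting error only. The change was 2.82-fold, a log2 fold change of 1.49 ± 0.35 (SE, edgeR adjusted p = 0.000879). Rxra, the shared heterodimer partner, had 87.2 and 115 normalized counts in Flag-IP and 48.0 in IgG-IP (81, 116 and 51 counts). It too was above IgG-IP in both Flag-IP libraries, by 2.10-fold or 1.07 ± 0.33 on the log2 scale (SE, edgeR adjusted p = 0.0157). Neither gene was called with libraries scaled to their totals or with the trend on transcript GC described below taken out, and a likelihood ratio test in edgeR gave Rxra an adjusted p of 0.0687.

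Ppara, the receptor best known for fatty acid oxidation in liver, had 99.1 and 59.4 normalized counts in Flag-IP and 46.2 in IgG-IP (92, 60 and 49 counts). The Flag-IP libraries disagreed: in Flag-IP 2 the Poisson interval of 45.3 to 76.5 overlapped that of IgG-IP, 34.1 to 61.0. Its log2 fold change was 0.77 ± 0.34 (SE, edgeR adjusted p = 0.132), and 0.36 with Flag-IP 1 left out. Pparg, the master regulator of fat cell formation, had 73.2 and 116 normalized counts in Flag-IP and 139 in IgG-IP (68, 117 and 148 counts). Both Flag-IP libraries were below IgG-IP, but Flag-IP 2 overlapped it in counting error, at 95.8 to 139 against 118 to 164. The log2 fold change was -0.55 ± 0.27 (SE, edgeR adjusted p = 0.175), and -0.27 with Flag-IP 1 left out. Between the Flag-IP libraries themselves, Ppara and Pparg differed by 0.72 and -0.65 on the log2 scale, the largest such differences of the 9 genes. The SD of that difference over genes averaging 50 counts or more was 0.357.

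Of the coactivators, Ppargc1a was lower in Flag-IP while Ppargc1b and Ncoa1 did not pass. Ppargc1a, the coactivator of mitochondrial biogenesis and thermogenesis, had 52.8 and 69.3 normalized counts in Flag-IP and 111 in IgG-IP (49, 70 and 118 counts). The groups did not overlap, and the change was 1.81-fold lower, -0.86 ± 0.30 on the log2 scale (SE, edgeR adjusted p = 0.0424). This adjusted p lay close to the threshold, and in edgeR it was 0.0526 without the filter on low counts, 0.0693 with upper-quartile factors, 0.117 by a likelihood ratio test and 0.830 with the GC trend taken out. Its relative Ppargc1b, also a coactivator of oxidative genes, lay on the other side, with 111 and 95.1 normalized counts in Flag-IP and 68.8 in IgG-IP (103, 96 and 73 counts). That is a log2 fold change of 0.58 ± 0.30 (SE, edgeR adjusted p = 0.218). Ncoa1, a histone acetyltransferase coactivator also called SRC-1, was the most alike between the Flag-IP libraries, with 366 and 365 normalized counts against 504 in IgG-IP (340, 369 and 535 counts). Its Poisson intervals did not overlap those of IgG-IP, at 328 to 407 and 329 to 405 against 462 to 549, and its log2 fold change was -0.46 ± 0.22 (SE, edgeR adjusted p = 0.156).

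Prdm16 was higher in Flag-IP, and Ncor1 showed no difference that could be detected at this depth. Prdm16, which directs brown and beige fat identity together with PPAR receptors and Ppargc1 coactivators, had 365 and 380.3 normalized counts in Flag-IP and 202 in IgG-IP (339, 384 and 214 counts). Both Flag-IP libraries were above IgG-IP by nearly the same amount, log2 ratios of 0.85 and 0.91, and the change was 1.85-fold or 0.89 ± 0.23 on the log2 scale (SE, edgeR adjusted p = 0.0036). It was not called with libraries scaled to their totals, with the GC trend taken out, by a likelihood ratio test (edgeR adjusted p = 0.0927) or by DESeq2 (adjusted p = 0.0748). Ncor1, the scaffold of the histone deacetylase corepressor complex, had 130.3 and 115 normalized counts in Flag-IP and 131 in IgG-IP (121, 116 and 139 counts). The 3 intervals overlapped, and its log2 fold change was -0.10 ± 0.26 (SE, edgeR adjusted p = 0.863). These standard errors come from a spread that edgeR shared between all genes, with 1 residual degree of freedom per gene, since IgG-IP has no replicate.

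**Figure D1:**
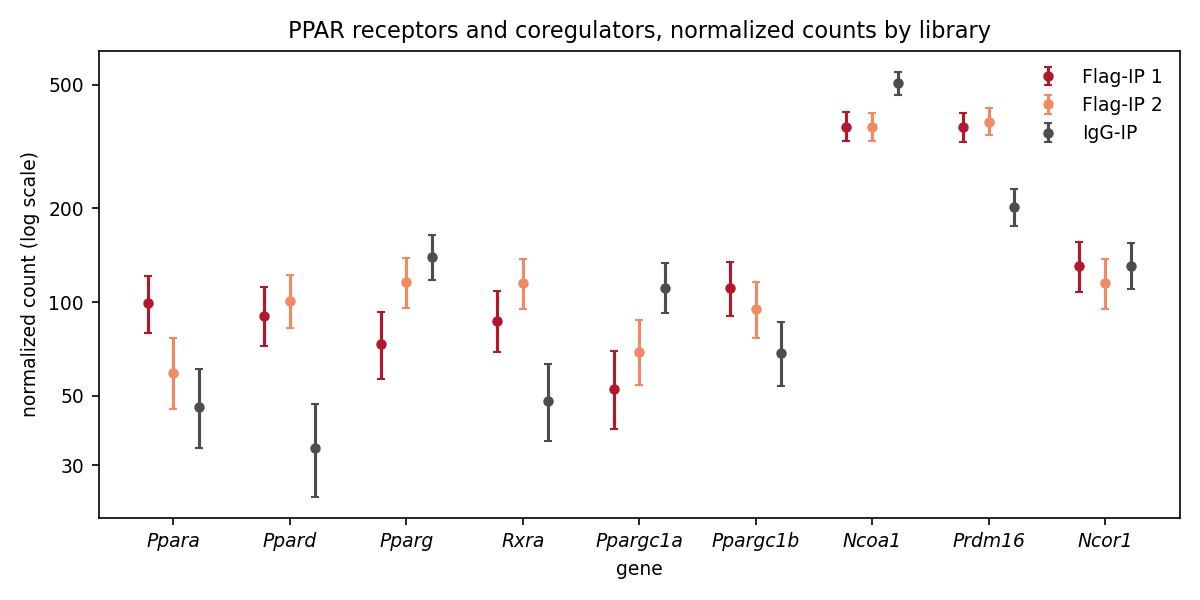
Normalized counts (log axis) of the 9 genes in each library, Flag-IP left of IgG-IP, with 95% exact Poisson intervals as bars. Ppard stands furthest apart, at 90.5 and 101 in Flag-IP and 33.9 in IgG-IP, while Ncor1 overlaps in all 3 libraries.

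In all, 3 of the 9 genes were called higher, where 5.58% of all tested genes and 9.46% of those averaging 50 counts or more were. 1 was called lower, where 5.77% and 15.4% were. Of the other 5, Ppara and Ppargc1b lay above IgG-IP in both Flag-IP libraries, and Pparg, Ncoa1 and Ncor1 below it in both. All 9 averaged 50 counts or more, so this set is better counted than most genes. Counted without a threshold, 5 of 9 lay above IgG-IP in both Flag-IP libraries and 4 below, against 37.8% and 48.4% of the genes with at least that mean. The median log2 fold change of the 9 was 0.58, against 0.03 over all tested genes. With libraries scaled by their totals instead, the log2 fold changes of all genes moved by a median of -0.52. The fold changes of the 9 came in the same order after that shift, but the calls became 0 higher (1 at an unadjusted p under 0.05) and 3 lower, namely Pparg (-1.06), Ncoa1 (-0.98) and Ppargc1a. Of all 17587 tested genes, 342 were called higher and 3008 lower with that scaling. Ppard, Rxra and Prdm16 stayed above 0 and Ppargc1a, Pparg and Ncoa1 below it with either scaling.

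Per kb of exon, the level in Flag-IP was highest for Ncoa1 (42.7 ± 0.06 normalized counts per kb, SD, n = 2) and Prdm16 (39.98 ± 1.15), followed by Pparg (32.0 ± 10.2), Ppargc1b (25.8 ± 2.8), Ppara (20.7 ± 7.3), Rxra (18.5 ± 3.6), Ppard (12.7 ± 1.0), Ncor1 (9.6 ± 0.9) and Ppargc1a (9.3 ± 1.8). From Prdm16 down to Rxra each gene and the next differed by less than the larger SD of the pair, and so did Ncor1 and Ppargc1a. In IgG-IP the order on the same scale was Ncoa1 (58.8), Pparg (47.2), Prdm16 (21.6), Ppargc1b (17.2), Ppargc1a (16.9), Ppara (12.0), Ncor1 (10.2), Rxra (8.8) and Ppard (4.5). Since counts followed gene span more closely than exonic length, the levels were also taken per kb of span. The range over the 9 genes was then 0.465 to 1.59 and 0.611 to 1.59 normalized counts per kb in Flag-IP and 0.493 to 2.19 in IgG-IP. It took in the median protein-coding gene of each library. In IgG-IP it passed both the lower and the upper quartile of protein-coding genes, 0.515 and 1.05. The same held in Flag-IP 1, with quartiles of 0.546 and 1.23. In Flag-IP 2 the range passed the upper quartile, 1.21, but not the lower, 0.568.

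Across the 9 genes the Spearman correlation of normalized count with gene span was 0.52 and 0.80 in Flag-IP and 0.95 in IgG-IP, a description over genes that share the libraries. Prdm16 and Ncoa1, the genes with the most counts, are also the longest, spanning 320.749 and 229.821 kb. Ncoa1 stood above most other long genes in every library, with 1.59 normalized counts per kb of span in each Flag-IP library and 2.19 in IgG-IP. Among 4911 protein-coding genes that span at least 50 kb it ranked at percentiles 92.6 and 93.1 in Flag-IP and 95.6 in IgG-IP. Ppard ranked at percentiles 89.5 and 92.3 in Flag-IP but 7.8 in IgG-IP, and Prdm16 at 84.5 and 86.9 in Flag-IP but 17.7 in IgG-IP. Ppargc1a went the other way, at 12.9 and 26.9 in Flag-IP and 67.8 in IgG-IP. The called differences of Ppard, Rxra and Prdm16 thus went with low ranks in the single IgG-IP library (Rxra 11.7) as well as high ones in Flag-IP.

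**Figure D2:**
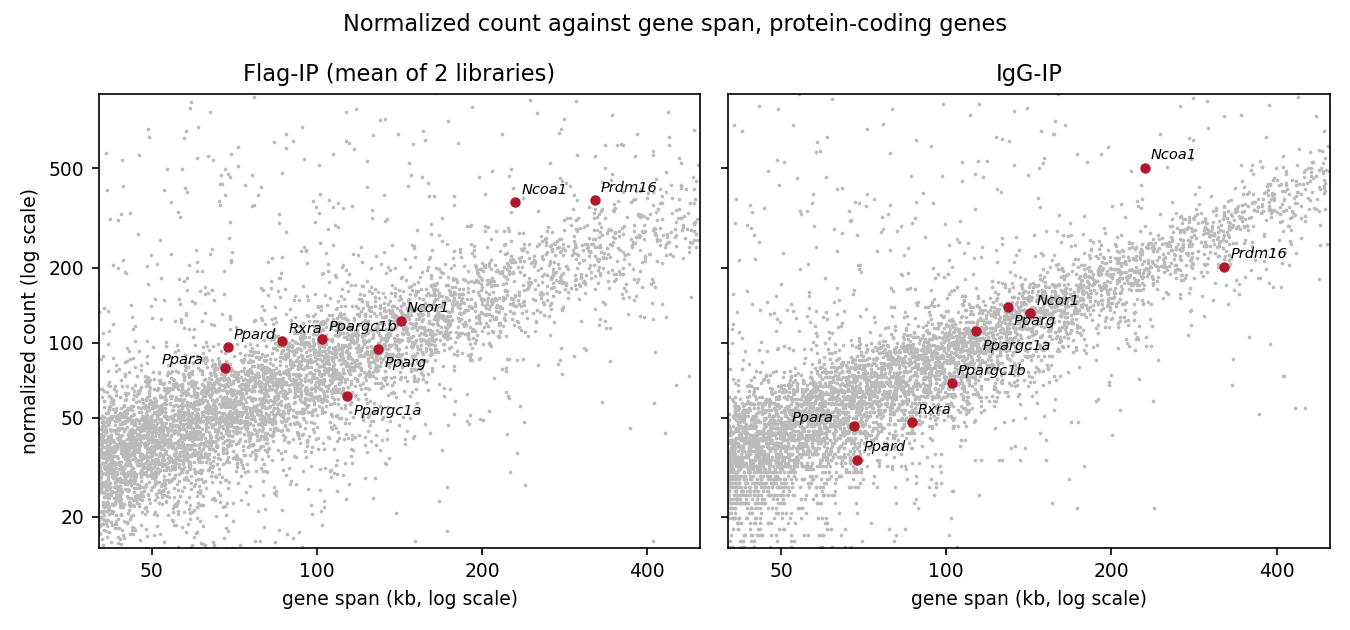
Normalized count against gene span (both axes log) for protein-coding genes in grey and the 9 genes in red, with the mean of the 2 Flag-IP libraries on the left and IgG-IP on the right; the axes cover only the range around the members. Counts climb with span in both, Ncoa1 lies in the upper part of the cloud in IgG-IP at 504, and Ppard lies near its lower edge there at 33.9.

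Other genes lie inside or across some of these spans, and how the authors' counting treated them is not known. Ncor1 (GRCm38, chromosome 11, 62316426 to 62458541, minus strand) shares exonic bases with Pigl (41 and 64 counts in Flag-IP, 34 in IgG-IP) and Ttc19 (52 and 30 in Flag-IP, 44 in IgG-IP), both on the opposite strand, and spans Gm12276, with at most 3 counts. Prdm16 (chromosome 4, 154316125 to 154636873, minus strand) overlaps B230104I21Rik on the opposite strand, which had 12 and 16 counts in Flag-IP and 5 in IgG-IP, and also Gm13133 and Gm13134, with at most 8 counts. Counts of such overlapping genes are uncertain where the counting could split them. For Ppara (chromosome 15, 85734983 to 85802819, plus strand), Ppard (chromosome 17, 28232700 to 28301474, plus strand) and Rxra (chromosome 2, 27676440 to 27762957, plus strand) the annotation lists no overlapping gene. Pparg (chromosome 6, 115360951 to 115490399, plus strand) and Ppargc1a (chromosome 5, 51454250 to 51567726, minus strand) overlap only genes that have no row in the count table. Ppargc1b (chromosome 18, 61298136 to 61400431, minus strand) holds Mir378a, with no row, and Gm25301, with 0 counts in both Flag-IP libraries and 2 in IgG-IP. The genes inside Ncoa1 (chromosome 12, 4247362 to 4477182, minus strand) that have a row were at 0 counts in all libraries.

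The GC content of the transcripts moved with the fold changes of the 9 genes. Ppard, with the largest increase, had the highest GC content at 59.8%, and Ppargc1a, with the largest decrease, the lowest at 41.7%. Between them lay Ppargc1b (57.8%), Rxra (57.0%), Prdm16 (53.3%), Ppara (51.5%), Pparg (50.2%), Ncoa1 (48.7%) and Ncor1 (48.5%), and over the 9 genes GC and log2 fold change had a Spearman's rho of 0.83. The same rho was 0.61 among 4448 well-counted protein-coding genes, those averaging 50 counts or more. In the lowest of 10 equal groups of those genes by GC (31.9% to 41.3%) the median log2 fold change was -0.70, with 1.57% called higher and 40.9% lower, and in the highest (56.2% to 75.9%) it was 0.63, with 31.0% called higher and 3.15% lower. The 3′ untranslated region of Ppargc1a had a GC content of 36.7% and its coding sequence 49.2%. In Ppard they were 59.3% and 58.7%.

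**Figure D3:**
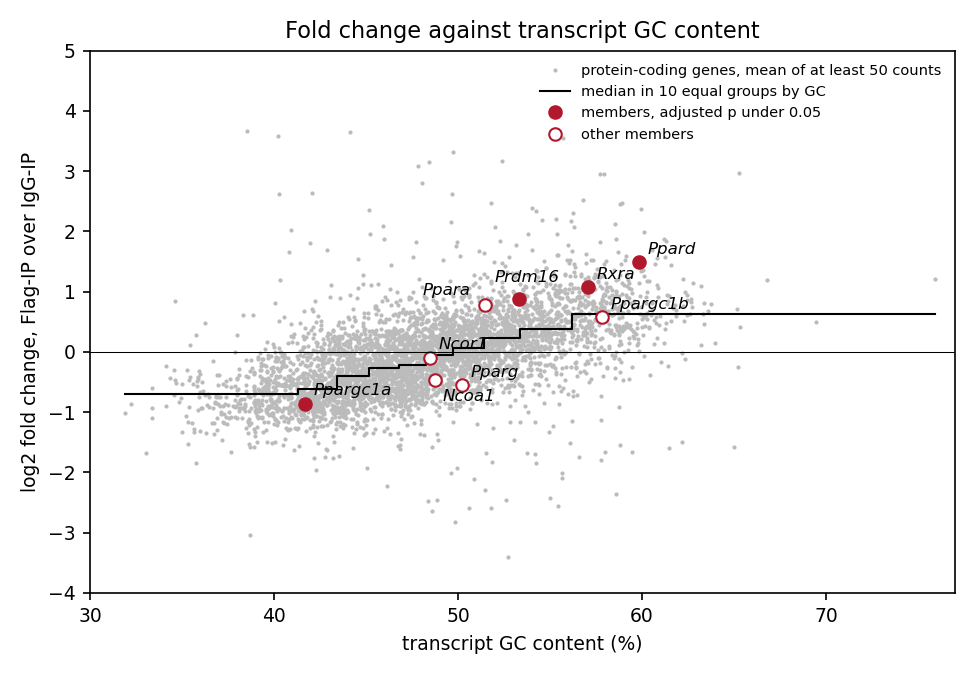
Log2 fold change (Flag-IP over IgG-IP) against transcript GC content for the well-counted protein-coding genes (grey), with the median of 10 equal groups by GC (line) and the 9 genes (red, filled where the adjusted p was under 0.05). Ppard at 59.8% GC and Ppargc1a at 41.7% mark the ends of the set, and Ppard, Rxra, Prdm16 and Ppara lie above the line.

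Set beside genes of like composition, the members parted in 3 ways. Ppard, at 1.49, lay above the median of 0.63 for the 279 well-counted protein-coding genes within 2.5 percentage points of its GC content. Rxra (1.07 against 0.52), Prdm16 (0.89 against 0.27) and Ppara (0.77 against 0.13) did too. Ppargc1b (0.58 against 0.60) and Ncor1 (-0.10 against -0.09) lay at the median of genes like them. Pparg (-0.55 against 0.04), Ncoa1 (-0.46 against -0.08) and Ppargc1a (-0.86 against -0.57) lay below.

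With a trend on transcript GC taken out in the same edgeR fit, 0 of the 9 genes were called (1 higher and 1 lower at an unadjusted p under 0.05), where 2.44% of genes were called higher and 1.61% lower. The log2 fold changes were then 0.67 for Ppard (edgeR adjusted p = 0.376), 0.59 for Ppara, 0.51 for Prdm16 (edgeR adjusted p = 0.251), 0.38 for Rxra (edgeR adjusted p = 0.673), -0.61 for Pparg, -0.38 for Ncoa1 and -0.23 for Ppargc1a (edgeR adjusted p = 0.830). Ppargc1b turned to -0.15, and Ncor1 to 0.01. With trends on GC and gene span both taken out, Prdm16 alone was called (0.76, edgeR adjusted p = 0.033), where 2.73% of genes were called higher and 1.2% lower, and Ppargc1a shrank to -0.13. Removing such a trend also removes any difference between the pull-downs that itself follows GC.

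**Figure D4:**
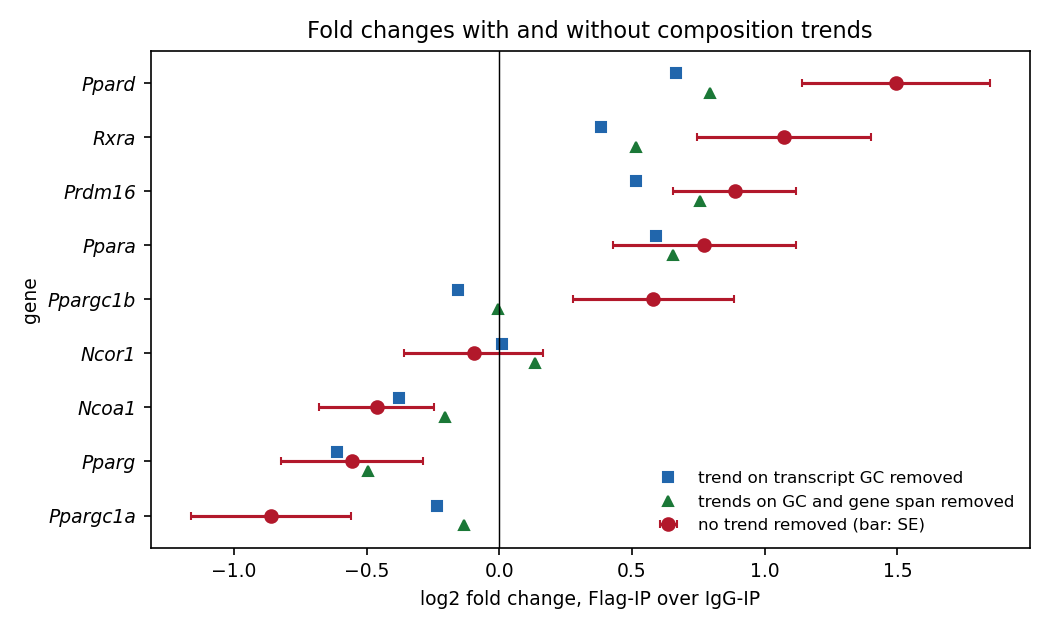
Log2 fold changes of Flag-IP over IgG-IP for the 9 genes, without a trend removed (circles, bars are SE), with the GC trend removed (squares) and with trends on GC and gene span removed (triangles). With the GC trend removed Ppard stands at 0.67 in place of 1.49 and Ppargc1a at -0.23 in place of -0.86, while Pparg stands at -0.61 in place of -0.55.

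The motif content of the transcripts was also set beside the fold changes. GGACT or GGACA or GGACC, read on the sense strand only and unable to overlap each other, occurred in 99.5% of the longest coding transcripts of 14920 tested protein-coding genes, with a median of 3.59 per kb, and GGACT alone in 92.6%. Rxra had 5.30 per kb, Prdm16 4.53 and Ppard 4.27, all above that median, as was Ncoa1 with 3.82. Pparg (3.29), Ncor1 (3.10), Ppargc1b (3.01), Ppara (2.64) and Ppargc1a (2.01) lay below it. The 3 genes called higher thus had the 3 highest densities, and the one called lower the lowest. Density and GC content were taken on the spliced transcript, without introns, whereas counts followed gene span more closely than exonic length. Spearman's rho between density and log2 fold change was 0.63 over the 9 genes and 0.39 over the 4448 genes, but density itself followed GC, with a rho of 0.50 and 0.63. Where the copies lie differed: 6 of the 8 GGACT of Rxra were in its 3′ untranslated region, against 0 of 8 in Ncor1 and 1 of 9 in Ncoa1.

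The genes whose pair of log2 ratios to IgG-IP lay nearest to a called member were found among 4439 other well-counted protein-coding genes, over 3 libraries. For Ppard these were Pkd1l3, Itpkb and Rbm19, at Euclidean distances of 0.066, 0.091 and 0.12. For Rxra they were Ptprf, Pfkfb4 and Rims4 (0.015, 0.027 and 0.043), and for Prdm16 they were Hspg2, Gmppa and Nt5dc2 (0.024, 0.026 and 0.027). For Ppargc1a they were Mlip, Rspo3 and Gpr149 (0.011, 0.018 and 0.029). GC content was 52.4% to 60.9% in the 9 genes near the members called higher and 44.1% to 49.3% in the 3 near Ppargc1a.

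Of the other receptors of this class, 2 of 12 tested were higher and 0 lower (5 and 0 at an unadjusted p under 0.05, and DESeq2 called 0 but gave an adjusted p for only 4 of them), and the median log2 fold change was 0.78. Over all tested genes 5.58% were higher and 5.77% lower. In a separate edgeR fit without genes averaging under 50 counts, 5 of these receptors were tested, 1 was higher and the median was 0.45. That fit called 774 higher and 784 lower of its 4979 genes. The retinoic acid receptors Rara and Rarg, which also pair with Rxra, were the higher ones. Rara had 286 and 261 normalized counts in Flag-IP and 146 in IgG-IP (0.91 ± 0.24, SE, edgeR adjusted p = 0.00423). Rarg had 38 and 31 counts in Flag-IP and 8 in IgG-IP (2.23 ± 0.61, SE, edgeR adjusted p = 0.00576). Their transcripts had GC contents of 59.2% and 58.8%, close to that of Ppard.

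Of the other coactivators, 0 of 22 were higher and 3 lower, and their median was -0.24 (3 higher and 4 lower at an unadjusted p under 0.05, and DESeq2 called 0 but gave an adjusted p for only 1 of them). Over all tested genes 5.77% were lower, and of well-counted genes 15.4%. In a separate edgeR fit of only the genes averaging 50 counts or more, scaled and adjusted anew, 10 coactivators were tested. Of these 1 was higher and 1 lower, where 774 and 784 of the 4979 genes in that fit were. With total-count scaling 0 of 22 were higher and 9 lower (0 and 10 at an unadjusted p under 0.05). Of all 17587 genes, 342 were higher and 3008 lower with that scaling. Asxl2, a chromatin regulator reported to bind PPAR receptors, had 66.8 and 63.4 normalized counts in Flag-IP and 161 in IgG-IP (-1.31 ± 0.28, SE, edgeR adjusted p = 0.000135). Asxl2 overlaps the antisense gene 1110002L01Rik, which had 22 and 32 counts in Flag-IP and 14 in IgG-IP. Med14, the scaffold of the Mediator complex, had 34 and 25 counts in Flag-IP and 70 in IgG-IP (-1.11 ± 0.38), and Gabpa, a transcription factor for mitochondrial genes, had 8 and 9 counts in Flag-IP and 35 in IgG-IP (-1.90 ± 0.62). Gabpa overlaps Atp5j, which had 11 and 22 counts in Flag-IP and 17 in IgG-IP. Like Ppargc1a, these genes had low GC contents, 41.4% to 43.9%.

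Of the other corepressors, 2 of 12 were higher and 0 lower (2 and 0 at an unadjusted p under 0.05), and the median was 0.00063. The shares over all tested genes were 5.58% higher and 5.77% lower. DESeq2 called the 1 gene of this list for which it gave an adjusted p. Among the higher ones was Safb, a scaffold attachment protein, which had 85.1 and 57.4 normalized counts in Flag-IP and 12.2 in IgG-IP (2.52 ± 0.46, SE, edgeR adjusted p = 2.46e-06). With the GC trend taken out, Safb was still called (1.86, edgeR adjusted p = 0.00273).

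Among the partners of Prdm16 and the brown-fat program, 1 of 14 was higher and 0 lower (1 and 1 at an unadjusted p under 0.05, and DESeq2 called 0 but gave an adjusted p for only 3 of them), with a median of 0.27. The 1 higher gene made up 7.14% of those tested, near the 5.58% of all tested genes called higher. It was Zfp516, a zinc finger partner of Prdm16, with 112 and 104 normalized counts in Flag-IP and 56.5 in IgG-IP (0.93 ± 0.31, SE, edgeR adjusted p = 0.0319). Without the filter on low counts, edgeR called 0 of this list (2 higher and 1 lower at an unadjusted p under 0.05).

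Among the target genes of PPAR receptors, 6 of 44 tested were higher, 2 were lower and 36 did not pass, and their median was 0.25, the same with Ucp2 at the bound given below. The calls made up 13.6% higher and 4.55% lower, where 5.58% and 5.77% of all tested genes were. Aqp7, a channel for glycerol that is also on the white adipocyte list (2080.6 and 1615 normalized counts in Flag-IP, 185 in IgG-IP, log2 fold change 3.32 ± 0.27), and Acadl, a long-chain acyl-CoA dehydrogenase (237 and 171 in Flag-IP, 39.6 in IgG-IP, 2.36 ± 0.30), had the most counts of the called targets. The droplet coat proteins Plin4 (32.3 and 33.7 in Flag-IP, 3.77 in IgG-IP) and Plin1 (36.6 and 58.4 in Flag-IP, 11.3 in IgG-IP) and the desaturase Scd1 (70.0 and 48.5 in Flag-IP, 20.7 in IgG-IP) were higher as well. Plin4 overlaps Hdgfrp2, which had 59 and 35 counts in Flag-IP and 19 in IgG-IP. Ucp2, a mitochondrial uncoupling protein, had 12 and 11 counts in Flag-IP and 0 in IgG-IP, at least 4.21-fold higher when IgG-IP is set to a floor of 3 counts, but it overlaps Dnajb13 (12 and 16 counts in Flag-IP, 15 in IgG-IP). The fatty acid transporter Cd36 was lower, at 80.8 and 71.3 in Flag-IP and 141 in IgG-IP (-0.89 ± 0.28), and so was Hadhb of the mitochondrial trifunctional protein, at 15.1 and 22.8 in Flag-IP and 50.9 in IgG-IP (-1.41 ± 0.45).

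With the GC trend taken out, edgeR called 0 of the other receptors, coactivators and brown-fat genes (2 and 0, 1 and 5, and 0 and 0 higher and lower at an unadjusted p under 0.05). Aqp7, Acadl, Plin4 and Scd1 were still called higher in that fit. Cidec, a lipid droplet protein that did not pass without that trend (117 and 93 counts in Flag-IP, 152 in IgG-IP), became the only lower target (-1.04, edgeR adjusted p = 0.00279). With only genes averaging 50 counts or more tested, 2 of 10 targets were higher and 1 lower. In that fit 774 of 4979 genes were higher and 784 lower. DESeq2 called 2 higher and 0 lower, and gave an adjusted p for 5 of the 44. Of all 17587 genes it called 131 higher and 145 lower, with no adjusted p for 15684. The likelihood ratio test called 10 targets higher and 1 lower, where 1130 and 751 of 17587 genes were. Total-count scaling called 4 targets higher and 6 lower, where 342 and 3008 of 17587 genes were. Under total-count scaling the list medians were 0.26 for other receptors, -0.76 for coactivators, -0.51 for corepressors, -0.24 for the brown-fat list and -0.27 for targets, beside the shift of -0.52 over all genes, so the last 3 changed sign.

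**Figure D5:**
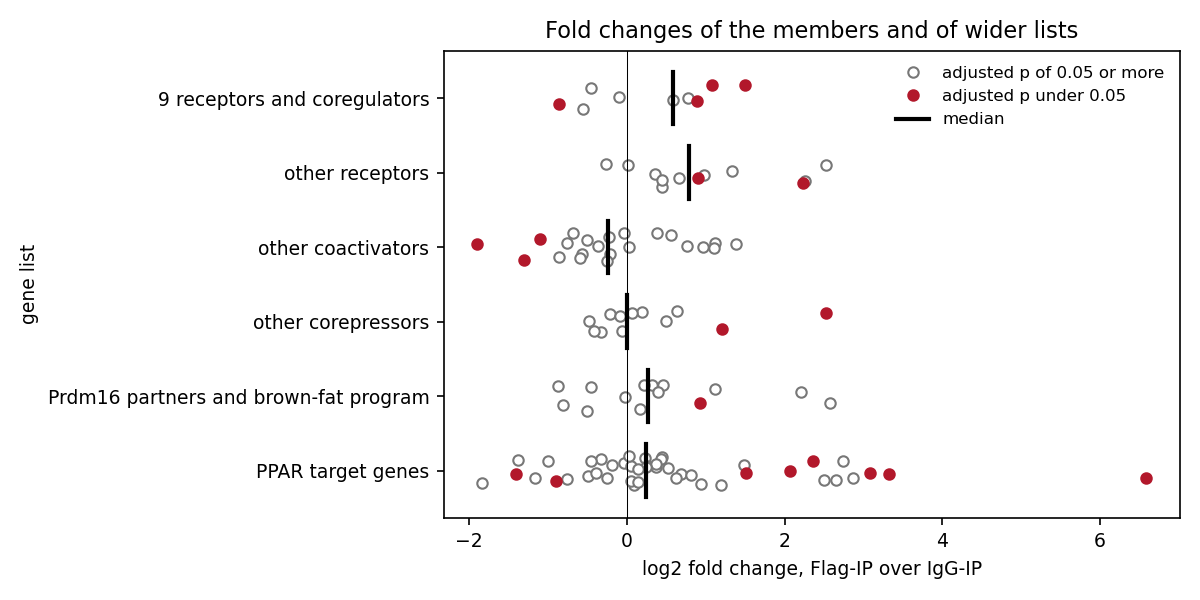
Log2 fold changes of Flag-IP over IgG-IP for the 9 receptors and coregulators and the wider lists, filled where the adjusted p was under 0.05, with list medians as vertical bars. List medians run from 0.78 for other receptors to -0.24 for other coactivators, with wide overlap between the lists; the point near 6.6 is Ucp2, whose fitted value has 0 counts in IgG-IP behind it and is no bound.

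Ppard was the only one of the 9 genes in the lipid list of 31 distinct genes that the study chose. In the authors' deposited table it has a Flag count of 102, an IgG count of 36 and a ratio of 2.83. The Flag count there equals that of Flag-IP 2 alone, and the ratio is not scaled for library size. Because the study chose that list on these samples, its presence there is not independent evidence of an increase.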

How the data were processed

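The authors deposited a table of raw counts by Ensembl identifier. Its columns carry sample numbers that also stand in the labels. CASAVA 1.7, Bowtie 0.12.2 and the build mm8 are named, per the submitters' processing notes. How reads were assigned to genes, and whether strand was used, is not given in the sources used here. A second deposited table lists Flag and IgG counts with a ratio score made by the authors.

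Genes were kept by filterByExpr (minimum count 10), scaled by TMM factors (0.840 and 0.936 in Flag-IP, 1.27 in IgG-IP) and tested with edgeR 4.0.16 (R 4.3.3), with p-values adjusted by Benjamini-Hochberg over all genes tested. The common dispersion was 0.0359. Log2 ratios of single libraries use a prior count of 2. Positions, spans and transcripts come from GENCODE M21 (GRCm38, not mm8), matched by Ensembl identifier for 37693 of 39179 genes. GC and span trends were lowess curves (span 0.3) over protein-coding genes, entered as offsets.

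DESeq2 1.42.0, RLE, upper-quartile and total-count scaling, other filters, a likelihood ratio test and leaving out each Flag-IP library were alternatives. The GC trend alone and that with gene span were added after seeing the data. Members, lists and tests were chosen with earlier results of these data known. Named genes of the wider lists are all those called, apart from 1 corepressor that is not reported here. Lists were not tested as sets.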

Additional observations from a re-analysis of the deposited data

How the results depend on the processing

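RLE factors gave 3 members higher and 1 lower (965 and 1037 of 17587 genes). A filter at a mean of 50 counts also gave 3 higher and 1 lower (774 and 784 of 4979 genes). With total counts 0 members were higher and 3 lower (342 and 3008 of all genes; Ppard 0.98, Rxra 0.56, Prdm16 0.37, Pparg -1.06 and Ncoa1 -0.98). Upper-quartile factors and no filter left 3 higher and 0 lower (Ppargc1a -0.79 and -0.92). Over all genes, upper-quartile factors called 1118 higher and 785 lower of 17587, and no filter 743 and 944 of 31043. The likelihood ratio test left 1 higher and 0 lower (Rxra 1.07, Prdm16 0.89, Ppargc1a -0.86), where 1130 and 751 of all genes were. DESeq2 called 0 either way (2 higher and 0 lower at an unadjusted p under 0.05; 131 and 145 of all genes), gave no adjusted p for 7 members, and put Prdm16 at 0.88 (adjusted p = 0.0748).

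The GC trend left 0 members called (424 higher and 280 lower of all genes; Ppard 0.67, Rxra 0.38, Ppargc1a -0.23, Prdm16 0.51), with exonic length added also 0 (452 and 279; 0.66, 0.34, -0.27, 0.52), and with gene span added 1 higher and 0 lower (476 and 209; Ppard 0.79, Rxra 0.52, Ppargc1a -0.13). Under these 3 settings Ppargc1b reversed (-0.15, -0.19 and -0.0032), as did Ncor1 (0.011, 0.064 and 0.13). The cause of the other changes was not tested.

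Leaving out each Flag-IP library, a value with no test, gave log2 fold changes of 0.36 to 1.10 for Ppara, 1.41 to 1.57 for Ppard, -0.93 to -0.27 for Pparg, 0.86 to 1.26 for Rxra, -1.07 to -0.68 for Ppargc1a, 0.47 to 0.69 for Ppargc1b, 0.86 to 0.91 for Prdm16, -0.19 to -0.0050 for Ncor1 and -0.464 to -0.459 for Ncoa1. The single IgG-IP library could not be left out, and its own spread is unknown.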
